A study of Mus musculus with 405 samples.

Results

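Microtubules are built from dimers of alpha and beta tubulin, and neurons need them for axons, dendrites and the transport of cargo by kinesins and dynein. Benzimidazole fungicides bind beta tubulin of fungi and worms and block its assembly, and zoxamide, chlorpropham and propyzamide are other pesticides that disturb microtubules, the first in oomycetes and the latter 2 in plants. In animal cells, tubulin mRNAs are subject to autoregulation: an excess of free tubulin dimers causes ribosomes that are making tubulin to lose their mRNA, through the first amino acids of the new chain. The level of tubulin mRNA therefore is a known readout of depolymerized microtubules.

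The 6 antitubulin pesticides were chosen by name from the sample titles. They were benomyl, thiabendazole, thiophanate, chlorpropham and propyzamide at 10 μM and zoxamide at 1 μM, with 1 sample each, out of 393 samples in the screen. Carbendazim, the product that benomyl forms, had no sample among those used. The labels do not say which ester of thiophanate was used, and only the methyl ester forms carbendazim. Cortical neurons from embryos at day 15 of C57BL/6J dams and CAST/EiJ sires were plated, received 5-fluoro-2′-deoxyuridine and uridine triphosphate to stop dividing cells, and were exposed on day 7 in vitro for 24 h to a dose of a chemical chosen as not cytotoxic or to vehicle (dimethylsulphoxide, 49 samples). Polyadenylated RNA was sequenced, and the authors' table held 13304 genes as deviations from the centre of each gene, freed of batch effects. Values are given here on the log2 scale, so that a deviation of 1 is 2-fold, and they hold no level. Levels, as CPM (a gene's reads scaled to a common library total), came from 4 vehicle columns of a count table with totals of 2778615 to 7833440. These columns may include a vehicle sample of the screen. The depth of the screen's samples is unknown.

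Because every compound had 1 sample, a test of 1 compound asks only whether that sample lay outside the spread of the vehicle samples, and assumes that it varied as they did. It does not show how a second culture would behave. A test of a group of compounds against vehicle took each compound as 1 unit, and its spread came mostly from the vehicle samples. Nothing in the labels says that the vehicle samples came from separate litters, so their spread may be partly technical. A deviation in such bulk RNA cannot tell fewer cells of a type from less RNA per cell.

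The cultures carried the RNA of neurons. All 8 neuronal markers were measured, at 110.0 to 2480.0 CPM, against 9.25 to 347.0 CPM for 7 of 8 astrocyte markers, 2.34 to 7.5 CPM for 5 of 10 microglial markers, and 0.997 to 2.74 CPM for 2 of 8 endothelial and pericyte markers. For oligodendrocyte lineage, 7 of 9 markers were at 3.28 to 72.9 CPM, and for fibroblasts and smooth muscle 6 of 8 at 4.98 to 45.7 CPM. No marker was called with any compound, and the median of each marker list lay within the range of the vehicle samples for each of the 6 compounds. Single markers lay outside that range in 5 values: Map2 of neurons below and the microglial C1qa above with thiophanate, the astrocyte gene Aldh1l1 above with chlorpropham, and 2 oligodendrocyte lineage values above, 1 each with thiophanate and zoxamide. Their part in the results was not tested.

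Tubulin mRNAs carry the signals named above in their coding sequence. The first 30 coding bases of Tuba1a, Tubb3 and Tubb5 are shown from the mm9 annotation because they hold the stretch read in autoregulation. Capitals mark the first 4 codons, which start with methionine, arginine and glutamate in alpha and beta tubulins alike.
Tuba1a: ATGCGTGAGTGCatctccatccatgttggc
Tubb3: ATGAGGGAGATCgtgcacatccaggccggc
Tubb5: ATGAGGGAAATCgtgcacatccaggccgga

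The next sequences show the stretch of beta tubulin around codon 200, which lies in the part of the protein linked to benzimidazole resistance in fungi and worms. Capitals mark codon 200, counted from the start codon, which was a tyrosine codon in the 6 beta tubulins shown here.
Tubb2a: aacacagatgaaaccTATtccattgacaat
Tubb2b: aacacagatgaaaccTACtgcatcgataat
Tubb3: aacacagacgagaccTACtgcatcgacaat
Tubb4a: aacactgatgagaccTACtgcatcgacaac
Tubb4b: aacacagatgagaccTATtgtattgataat
Tubb5: aacacggatgagaccTACtgcatcgacaac

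The first question was whether tubulin mRNAs moved. No alpha or beta tubulin mRNA was called with any of the 6 compounds or with the class as a whole, by limma with Benjamini-Hochberg adjustment over all genes of the table. The table held 4 of 8 alpha tubulins and 7 of 8 beta tubulins. Of the 66 values, 11 genes with 6 compounds each, 0 lay above and 3 lay below all 49 vehicle samples. With thiabendazole these were Tubb2a and Tubb4a, and with chlorpropham it was Tuba1b, where 2.87% and 2.72% of all genes lay below every vehicle sample. Above all vehicle samples lay 0.413% of genes with thiabendazole and 2.01% with chlorpropham.

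Tubb3, the beta tubulin that marks neurons (chr8:125935324-125945915 in mm9, 2480.0 ± 348.0 CPM, SD, n = 4), had a deviation of -0.18 with benomyl, -0.05 with thiabendazole, 0.08 with thiophanate, -0.06 with chlorpropham, 0.09 with propyzamide and 0.11 with zoxamide. The vehicle samples ran from -0.33 over a median of 0.07 to 0.34, so that all 6 compounds lay inside. Tubb5, a beta tubulin of many tissues (chr17:35970871-35975251), was at -0.12, -0.05, 0.11, -0.01, 0.13 and 0.15 in the same order of compounds, against -0.45 to 0.31 for vehicle. Tuba1a, the main alpha tubulin of young neurons (chr15:98780272-98783982), was at -0.11, -0.04, 0.22, -0.04, 0.17 and 0.10, against -0.29 to 0.35. For these genes the groups overlapped wholly.

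Tubb4a (chr17:57219489-57227205), a beta tubulin of neurons and myelinating cells, was at -0.10 with benomyl, -0.20 with thiabendazole, -0.10 with thiophanate, -0.09 with chlorpropham, -0.00 with propyzamide and 0.06 with zoxamide. The vehicle samples ran from -0.13 over 0.05 to 0.42, and only the thiabendazole sample lay below them. Tubb2a was at -0.15 with thiabendazole, against a lowest vehicle value of -0.14, and Tuba1b at -0.33 with chlorpropham, against -0.25. None of these passed the test for its compound (adjusted p = 1.00 for Tubb2a and Tubb4a with thiabendazole, 0.582 for Tuba1b with chlorpropham).

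The other tubulins were inside the vehicle range with each compound. Tubb2b, a beta tubulin of developing neurons, lay between -0.11 and 0.14, and Tubb4b, a widely expressed one, between -0.15 and 0.24. Tubb6, the beta tubulin with the lowest level (18.1 CPM), lay between -0.24 and 0.17. Among alpha tubulins Tuba1c lay between -0.06 and 0.20 and Tuba4a between -0.31 and 0.32.

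**Figure D1:**
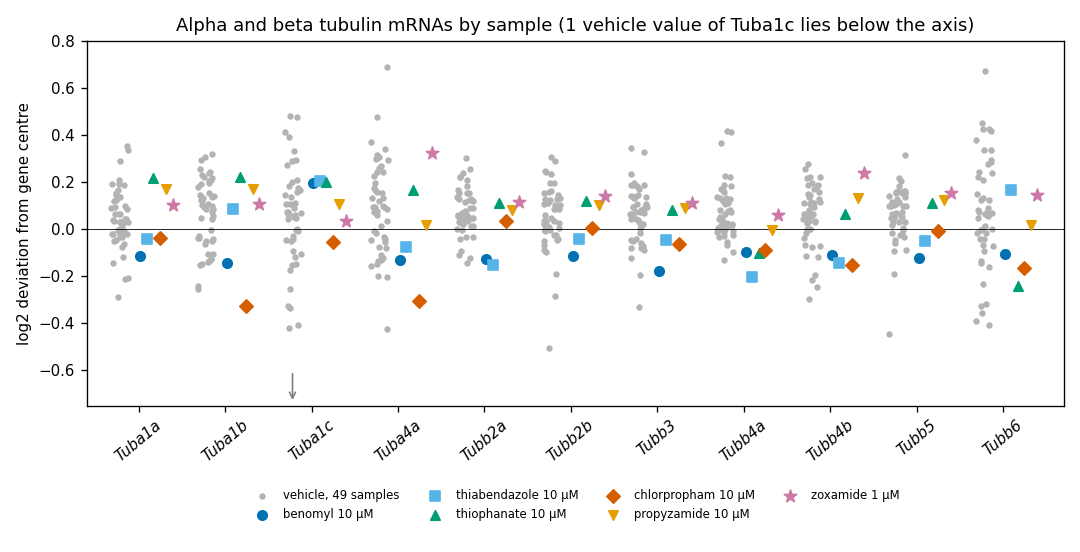
Deviation (log2) of each measured alpha and beta tubulin mRNA in 49 vehicle samples (grey) and in the 1 sample of each compound (coloured). Of the 66 compound values, 3 lie below all vehicle points and 0 lie above them; a Tuba1c vehicle value of -3.70 falls below the axis.

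Within these limits the compounds differed in the side of the vehicle median on which beta tubulins lay. With benomyl and with chlorpropham 0 of 7 beta tubulins were above it, with thiabendazole 1, with thiophanate 4, with propyzamide 5 and with zoxamide 7. Vehicle samples could also have all 7 on the same side. In a vehicle sample all 7 lay between -0.195 and -0.032, and in another between 0.11 and 0.424. Whether the counts of the compounds differ from those of vehicle was not tested. The median deviation of the 7 was -0.11 for benomyl, -0.05 for thiabendazole, 0.08 for thiophanate, -0.06 for chlorpropham, 0.09 for propyzamide and 0.14 for zoxamide. The vehicle medians for the list spanned -0.33 to 0.31, so each compound lay inside. The median over all genes was between -0.01 and 0.02 for each of the 6. The 4 alpha tubulins had medians of -0.12, 0.02, 0.21, -0.18, 0.14 and 0.11 in the order benomyl, thiabendazole, thiophanate, chlorpropham, propyzamide and zoxamide, and only chlorpropham fell outside the vehicle range of -0.17 to 0.34.

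In the test of the class, 6 compounds against 49 vehicle samples, differences for the beta tubulins ran from -0.15 to -0.01 and for the alpha tubulins from -0.09 to 0.14. For Tubb3 the difference was -0.07 with a 95% interval of -0.18 to 0.04 (adjusted p = 0.918). For Tubb5 it was -0.03, with an interval of -0.14 to 0.08 (adjusted p = 0.973), and for Tuba1a 0.00, with an interval of -0.11 to 0.12 (adjusted p = 0.995). Tubb4a had the smallest p among the tubulins, with -0.15, an interval of -0.25 to -0.05 and an adjusted p of 0.712.

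Next, all genes were compared. As a class the 6 compounds called 0 genes against vehicle (0% called, adjusted p under 0.05). Without adjustment, 835 genes had a p under 0.05, 301 higher and 534 lower, which is 6.28% of those tested. The 5 genes with the smallest p did not pass: Arrdc3, an arrestin-domain adaptor, at 0.32, Sort1, the sorting receptor sortilin, at -0.17, Hexim1, an inhibitor of transcription elongation, at -0.31, and D430020J02Rik and Rcsd1 at -0.73 and -1.11, each with an adjusted p of 0.526. Arrdc3 was above the vehicle median in 6 of 6 compounds (0.10, 0.26, -0.12, 0.21, -0.02 and 0.44 in the order used above, with vehicle at -0.53 to 0.26). Sort1 was below it in 6 of 6, yet only thiophanate, at -0.13, lay under the lowest vehicle sample at -0.07.

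Each chemical was then taken as 1 value and the 6 were set against the other 291 chemicals of the screen. Again 0 genes were called by limma (0% called), with 407 at an unadjusted p under 0.05. Stxbp3b, listed as a gene close to a syntaxin-binding protein, had the smallest p at -1.29 (95% interval -1.94 to -0.65, adjusted p = 0.999). Its level in vehicle was 1.51 CPM, and reads of near-identical copies may be split between such genes. Rcsd1, Rnaseh2c, Diexf and Fkbpl followed, at -1.14, 0.81, -0.41 and -0.46, with the same adjusted p.

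Few genes were called with single compounds. Against vehicle, thiophanate called 48 genes (0.361%), chlorpropham 17 (0.128%), propyzamide 4 (0.0301%), thiabendazole 2 (0.015%), zoxamide 1 (0.00752%) and benomyl 0 (0%, with 391 genes at an unadjusted p under 0.05). These were 72 genes, and 0 of them were called with more than 1 compound. With so few calls among 13304 genes an overlap was unlikely in any case, so its absence does not show that the compounds differed. Only 4 were higher than vehicle, each with thiophanate. Set among the 344 exposed samples of the screen, each treated in this way, the median sample called 7 genes and the quartiles were 2 and 27.5. Most of the samples with any call had more genes lower than higher, as the compounds with calls did here. Thiophanate ranked 67 from the top, chlorpropham 99, propyzamide 224, thiabendazole 253, zoxamide 281, and benomyl last of the 6. The 344 are samples and not chemicals. They include the many repeat samples of topotecan, the study's positive control, and each of these ranked above thiophanate.

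**Figure D2:**
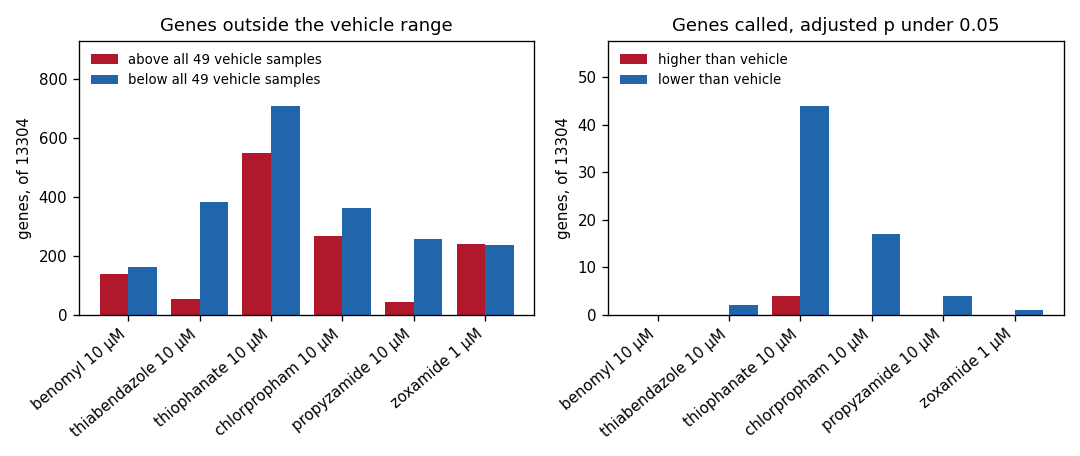
Left, number of genes whose value lay above (red) or below (blue) all 49 vehicle samples, and right, number called higher or lower than vehicle at an adjusted p under 0.05, for the 1 sample of each compound. A vehicle sample would also have genes outside the range of the others, and their number was not computed. Thiophanate has the most in both panels, with 549 genes above and 710 below the vehicle range and 48 called.

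Thiophanate, a phenylene bis-thiourea that closes to a benzimidazole, gave 44 genes lower and 4 higher. Ppia, the chaperone cyclophilin A, was at -3.58, against -2.08 to 1.09 in vehicle, a difference of -3.42 (95% interval -4.68 to -2.16, adjusted p = 0.00745). Its level was only 1.30 CPM in the count table, and processed copies of this gene can take its reads, so its value is uncertain. Ndufb3, a subunit of respiratory complex I (14.6 CPM), was at -1.83, against -1.03 to 0.70, with a difference of -1.84 (adjusted p = 0.00745). Pcbd2, a dimerization cofactor, and 4930528A17Rik fell by 3.85 and 3.14.

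The 4 genes that rose with thiophanate were Tnk1, a non-receptor tyrosine kinase, by 1.01 (95% interval 0.60 to 1.42, adjusted p = 0.0141), Cdc16, a subunit of the anaphase-promoting complex, by 0.88, Rabac1, a prenylated Rab acceptor, by 0.65, and Pdhb, a subunit of pyruvate dehydrogenase, by 0.65. Dcx, the microtubule-binding protein doublecortin of migrating neurons (chrX:140290385-140367854), fell by 0.53 (95% interval -0.78 to -0.28, adjusted p = 0.0399). It was at -0.50 with thiophanate, against -0.32 to 0.30 in vehicle and -0.16 to 0.16 with the other 5 compounds. Dcx and Kif11, described below, were the only 2 genes called among 405 measured members of the 27 gene lists. Over all 13304 genes 72 were called with any compound, which is a similar share.

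Transcript length moved with these values. Across 13041 genes with a length in the mm9 annotation, the Spearman correlation of deviation with transcript length was -0.263 for thiophanate and -0.205 for propyzamide, both under the lowest of the 49 vehicle samples at -0.137, while the vehicle samples reached 0.387. The other 4 compounds had correlations between -0.0354 and 0.216. The genes lower with thiophanate had a median transcript length of 5818 bases, against 3250 for all genes. After a smooth trend on transcript length was subtracted from each sample, thiophanate called 9 genes, all among the 48, and of those named here Ndufb3, Ppia and Tnk1 were still called (adjusted p = 0.00192, 0.00783 and 0.0291) while Dcx was not (-0.31, adjusted p = 0.295). Cdc16, Rabac1, Pdhb and Pcbd2 also lost the call (adjusted p = 0.151, 0.158, 0.187 and 0.0534), so that of the 4 genes that rose only Tnk1 kept it. Of the 48 genes, 2 had no length and could not be tested so. For chlorpropham 15 of the 17 calls were kept and 1 gene had no length. RNA with an integrity number over a set limit was sequenced. The study describes lower integrity numbers in its cluster 6 of chemicals, which holds thiophanate. It calls the differences among its clusters subtle and the quality high enough, and reports no evidence that RNA quality shaped the clusters. Values for single samples were not analysed here, and the part of RNA quality in the result was not tested.

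**Figure D3:**
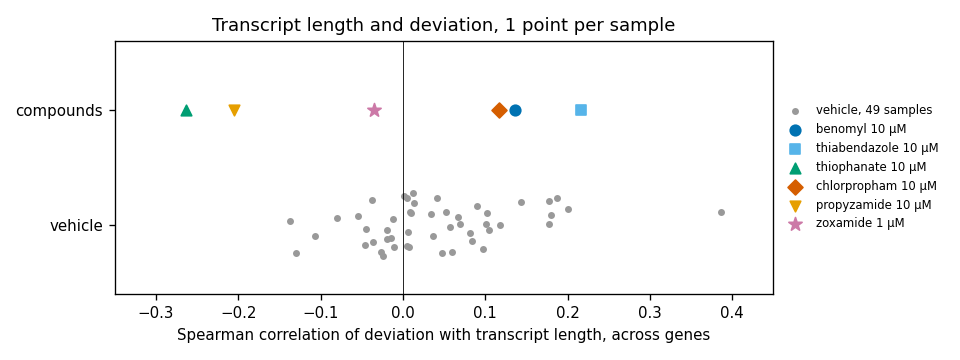
Spearman correlation across genes of the deviation with transcript length, 1 point per sample, for 49 vehicle samples (grey) and the 6 compounds. Thiophanate (-0.263) and propyzamide (-0.205) lie left of every vehicle sample.

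Chlorpropham, a carbamate herbicide, gave 17 genes lower than vehicle and 0 higher. Kif11, the mitotic kinesin that pushes spindle poles apart (chr19:37450893-37496349), was at -2.54 with chlorpropham, against -0.82 over 0.04 to 1.50 in vehicle and -0.55 to 0.29 with the other 5 compounds. It fell by 2.62 (95% interval -3.60 to -1.64, adjusted p = 0.00723). The vehicle level was 2.62 ± 0.82 CPM (SD, n = 4), which is few counts per sample. The other 19 measured genes of mitosis and the spindle checkpoint were not called. Their list had a median of -0.04 with chlorpropham, inside the vehicle range of -0.91 to 0.52.

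The largest falls with chlorpropham were in Mir6369 (-4.14), Stxbp3b (-3.42) and Cideb, a lipid droplet protein (-3.14), with adjusted p of 0.00723, 0.0399 and 0.00767. Of the 17 genes, 7 had a vehicle level under 5 CPM, and the median level was 7.57 CPM. Mir6369 names a microRNA locus, which a library of polyadenylated RNA does not measure as such, so the value is uncertain. Genes at higher levels were also among the calls, such as Cdc123, an assembly factor for translation initiation (18.6 CPM), at -1.60.

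Thiabendazole, a benzimidazole that carries a thiazole ring in place of the carbamate, gave 2 calls. Penk, the precursor of enkephalin opioid peptides (chr4:4060678-4065966, 27.8 ± 9.44 CPM), was at -1.41, against -0.50 over 0.03 to 0.93 in vehicle and -0.04 to 0.20 with the other 5 compounds. It fell by 1.45 (95% interval -2.01 to -0.88, adjusted p = 0.0459). Pld5, a member of the phospholipase D family at 1.38 CPM, fell by 2.27 with the same adjusted p.

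Other neuronal activity genes had low values in the same sample. Bdnf, a neurotrophin induced by activity, was at -1.71, against a lowest vehicle value of -0.84, and Vgf, the precursor of secreted neuropeptides, at -1.34, against -0.97. Neither passed (-1.75, adjusted p = 0.231, and -1.40, adjusted p = 0.824), and both were named after their values were seen. Of 23 immediate early and activity-regulated genes, 3 were above the vehicle median with thiabendazole, and 2 were below all vehicle samples, which is 8.70%, against 2.87% of all genes. The list's median, -0.21, was inside the vehicle range of -0.56 to 0.94. In this sample 0 of 8 neuronal markers were above the vehicle median, against 7 of 7 astrocyte and 6 of 6 fibroblast and smooth muscle markers, with list medians of -0.07, 0.15 and 0.50. The part of this in the low values of neuronal genes was not tested.

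Propyzamide, a benzamide herbicide with an alkyne side chain, gave 4 calls, all lower. Il6ra, a receptor subunit for interleukin-6 (2.24 CPM), was at -3.05, against -0.99 to 0.96 in vehicle, a fall of 2.94 (adjusted p = 0.000496). 9330179D12Rik, Mroh8 and Alms1, the last a protein of centrosomes and cilia, differed by -2.52, -2.35 and -1.47 (adjusted p = 0.000384, 0.0189 and 0.0204). All 4 were also called after the length trend was removed. The vehicle level was under 5 CPM for 3 of the 4.

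Zoxamide, a benzamide fungicide with a chlorinated ketone side chain, gave 1 call. Mrps31, a protein of the mitochondrial ribosome (7.66 CPM), was at -2.22, against -0.85 to 0.83, and fell by 2.25 (95% interval -3.11 to -1.38, adjusted p = 0.0476).

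A pattern in zoxamide concerned the NRF2 pathway, in which the transcription factor NRF2 raises genes of glutathione, thioredoxin and heme metabolism when electrophiles or oxidants modify its inhibitor KEAP1. With zoxamide 17 of 18 listed genes were above the vehicle median, and the list's median was 0.28, against -0.22 to 0.17 for the 49 vehicle samples. The other 5 compounds had medians between -0.04 and 0.07. Zoxamide ranked 19 from the top among the 344 exposed samples, repeats of topotecan included, on this median. None of the 18 passed the test. In the same sample 6 of 7 astrocyte, 5 of 5 microglial and 5 of 6 fibroblast and smooth muscle markers were above the vehicle median, with list medians of 0.39, 0.47 and 0.41, all inside the vehicle range. Their part in the NRF2 values was not tested.

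Hmox1, heme oxygenase 1 (chr8:77617490-77624495, 20.9 ± 12.3 CPM), was at 1.32 with zoxamide, against -0.88 over -0.04 to 0.61 in vehicle and -0.08 to 0.17 with the other 5 compounds. The difference was 1.38 (95% interval 0.74 to 2.02, p = 7.1e-05 before and 0.134 after limma's adjustment over all genes). Srxn1, sulfiredoxin (chr2:151931252-151937112, 55.3 ± 12.5 CPM), was at 0.67, against -0.49 over -0.01 to 0.27, a difference of 0.69 (95% interval 0.37 to 1.02, adjusted p = 0.134). These 2 of 18 genes, 11.1%, were above all vehicle samples, against 1.82% of all genes. Nqo1, a quinone reductase, was at 1.04 and inside the vehicle range of -4.25 to 1.18. In the thiabendazole sample 2 of the 18 genes, also 11.1%, were below all vehicle samples, where 2.87% of all genes were. After the length trend was removed 1 was below. Srxn1, at -0.69 with thiabendazole, was below all vehicle samples and was not called.

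The promoter window of Srxn1 is shown because, with Hmox1, the gene had the smallest p of its list with zoxamide. It is the RefSeq window from 250 bases before to 50 bases after the start, chr2:152105274-152105573 on the plus strand of GRCm38.p6, another build than the mm9 coordinates above. Capitals mark the match to TGANTCAGC, a form of the antioxidant response element, searched on both strands.
Srxn1: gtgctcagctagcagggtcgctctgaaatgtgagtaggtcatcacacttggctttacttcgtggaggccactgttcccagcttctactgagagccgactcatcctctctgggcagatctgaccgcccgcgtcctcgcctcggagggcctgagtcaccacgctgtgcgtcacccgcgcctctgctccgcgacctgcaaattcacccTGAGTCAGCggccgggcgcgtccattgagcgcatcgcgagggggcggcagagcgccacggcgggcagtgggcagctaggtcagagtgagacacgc
The motif was held by 1.187% of 32851 windows and by those of 4 of the 14 listed genes with a window, namely Srxn1, Osgin1, Me1 and Prdx1. The first share counts windows. The second counts genes, for which any matching window sufficed, so the shares are not in the same unit. A match is a description of letters and not evidence of binding.

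**Figure D4:**
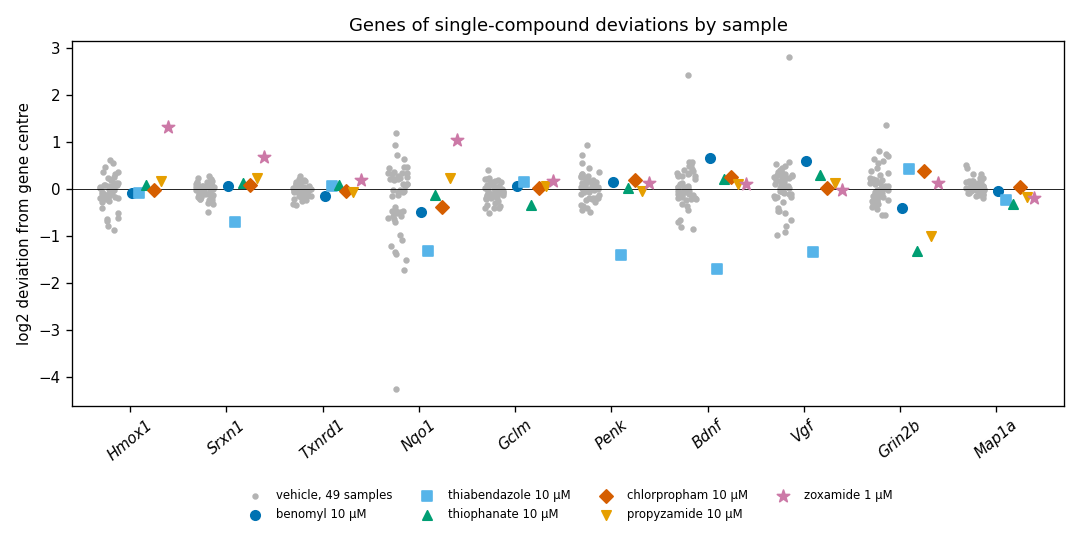
Deviation (log2) of NRF2 genes (Hmox1 to Gclm), activity-regulated genes (Penk, Bdnf, Vgf), Grin2b and Map1a in 49 vehicle samples (grey) and in the 1 sample of each compound. Zoxamide lies above all vehicle points for Hmox1 and Srxn1, and thiabendazole below them for Srxn1, Penk, Bdnf and Vgf.

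The wider microtubule machinery was described by lists. Of 32 microtubule-associated proteins, 9 were below and 2 above all vehicle samples with thiophanate, where 5.34% and 4.13% of all genes were. Map1b, a scaffold of growing axons, was at -0.42, against a lowest vehicle value of -0.22, and Mapre1, which tracks growing microtubule ends, at -0.23, against -0.22. After removal of the length trend 0 of the 32 were below and 1 above, and the list's median went from -0.10 to -0.01. Map1a, a dendritic microtubule protein with a transcript of 11825 bases, was the only listed gene below all vehicle samples with 3 compounds: thiabendazole at -0.24, thiophanate at -0.33 and zoxamide at -0.20, against a lowest vehicle value of -0.20. Its class difference was -0.21 (95% interval -0.34 to -0.09, adjusted p = 0.573), and without the length trend it was -0.16. Without that trend Map1a was no longer below all vehicle samples with 3 compounds. Over all genes, 14 (0.105%) were below and 4 (0.0301%) above the vehicle samples with at least 3 compounds.

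Of 21 tubulin folding factors and autoregulation genes, 2 were above all vehicle samples with thiophanate, the GTPase Arl2 and the cofactor Tbcd, where 4.13% of all genes were, and the list's median of 0.21 exceeded the vehicle maximum of 0.14. Without the length trend it was 0.14 and inside a range up to 0.17, with 1 member above and 1 below. Cct8, a subunit of the CCT chaperonin that folds tubulin, was below with thiabendazole at -0.23, against -0.19. Among 16 tubulin modifying enzymes 0 were outside the vehicle range with any compound, although the median with benomyl, -0.13, was below the lowest vehicle median of -0.07. Tubg1, the gamma tubulin that nucleates microtubules, was at 1.27 with thiophanate, above a vehicle maximum of 1.11, and was not called (adjusted p = 0.274).

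For 27 neuronal kinesin and dynein genes the median was -0.09 with thiabendazole and -0.11 with zoxamide, both under the lowest vehicle median of -0.05, and in each sample 2 members were below all vehicle samples, where 2.87% of all genes were with thiabendazole and 1.79% with zoxamide. Without the length trend 5 members were below with thiabendazole and 0 with zoxamide, where 3.1% and 1.71% of all genes were. The medians of benomyl (-0.053) and chlorpropham (-0.05) were then also under the lowest vehicle median, which was -0.041. Before that removal the 2 members below were Dynll2 and Kif5c, a dynein light chain and the heavy chain of a kinesin of axons, with thiabendazole, and the dynein chains Dync1i2 and Dync1li2 with zoxamide. None was called. Among 17 genes of severing and nucleation, medians for the 6 compounds lay between -0.05 and 0.17, inside the vehicle range.

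Jun, the transcription factor that DLK and JNK signalling raises after axon injury, was at 0.49 with benomyl, against a vehicle maximum of 0.48, and was not called (0.51, 95% interval 0.16 to 0.86, adjusted p = 1.00). The median of the 20 measured genes of this response was 0.11 with benomyl, above the vehicle maximum of 0.06, and between -0.10 and 0.05 with the other 5 compounds. The 12 genes of the aryl hydrocarbon receptor pathway, which some benzimidazoles activate, and the 21 genes of cholesterol synthesis had medians inside the vehicle range with each compound. So had the 20 genes of the ATF4 response and the 16 p53 targets. Chaperones of the unfolded protein and heat shock responses had a median of -0.15 with thiabendazole, below the lowest vehicle median of -0.14, and 3 of 14 (Dnajb9, Hsp90b1 and Hspa5) were below all vehicle samples, where 2.87% of all genes were.

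**Figure D5:**
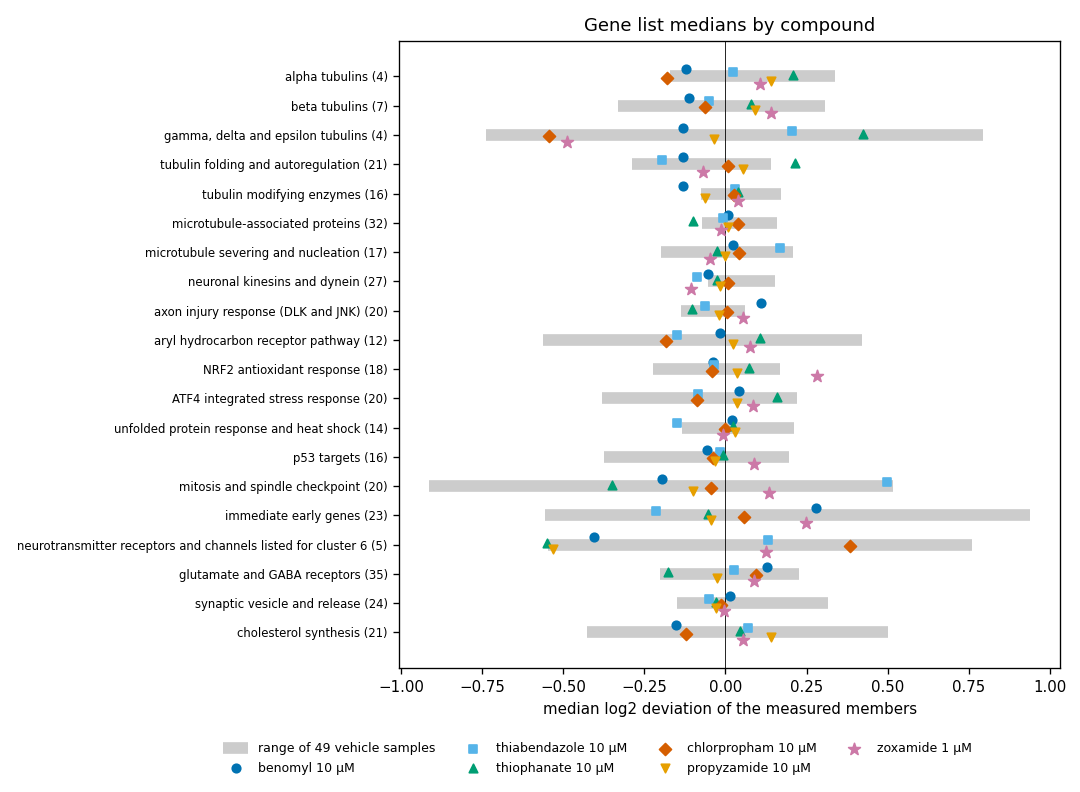
Median deviation (log2) of the measured members of 20 gene lists (number in parentheses) for the 1 sample of each compound, with the range of the same median over 49 vehicle samples as a grey bar. Zoxamide lies right of the bar for the NRF2 list, and thiophanate left of it for microtubule-associated proteins.

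In all, 10 of 162 list medians (27 lists, marker lists included, with 6 compounds) were outside the vehicle range, or 6.17%. For the other 338 exposed samples, repeats of topotecan included, the share was 8.31% of 9126 medians. After the length trend was removed, 8 of the 10 were outside on the same side. A further 3 were then outside, benomyl and chlorpropham for the kinesins and dynein and propyzamide for the receptor and channel genes described next, for 11 in all.

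Receptor genes were examined because the study had grouped thiophanate with other chemicals, as its cluster 6, from these same values. A list of 5 receptor and channel genes drawn up with that group in view (Chrm2, Chrna7, Grin2a, Grin2b and Kcna3) is therefore not independent evidence of a direction. The median of the 5 was -0.55 with thiophanate, against a lowest vehicle median of -0.546, and -0.53 with propyzamide. Without the length trend propyzamide, at -0.547, was also below the lowest vehicle median, then -0.454. With thiophanate, Grin2b, an NMDA receptor subunit (chr6:135679844-136123529), was at -1.31, against -0.56 over -0.02 to 1.36 in vehicle, and Kcna3, a potassium channel, at -0.84, against a lowest vehicle value of -0.72. Neither passed (Grin2b -1.38, 95% interval -2.14 to -0.61, adjusted p = 0.0841, and Kcna3 -0.88, adjusted p = 0.219). Grin2b was at -1.005 with propyzamide, also below all vehicle samples (adjusted p = 0.866), and at -0.41, 0.43, 0.38 and 0.12 with benomyl, thiabendazole, chlorpropham and zoxamide. Of 35 glutamate and GABA receptor genes, 5 were below all vehicle samples with thiophanate and 2 with propyzamide, where 5.34% and 1.95% of all genes were. The NMDA receptor subunits of the list of 5 are glutamate receptors too. With thiophanate these counts are therefore not independent of the study's grouping either. After the length trend was removed there were 3 with thiophanate, or 8.57%, against 3.27% of all genes. Of 24 genes of synaptic vesicles and release, 3 were below all vehicle samples with thiabendazole and 3 with thiophanate, where 2.87% and 5.34% of all genes were. Without the length trend there were 3 with thiabendazole and 1 with thiophanate, where 3.1% and 3.27% of all genes were. The list's median was inside the vehicle range with each compound.

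Compounds of different structure were then compared at 10 μM and 24 h. Benomyl, thiabendazole and thiophanate, which hold or form the benzimidazole ring, called 0 genes against vehicle (0% called by limma, 652 genes at an unadjusted p under 0.05). Irgm1, an interferon-induced GTPase at 1.72 CPM, had the smallest p, at -1.49 (95% interval -2.11 to -0.86, adjusted p = 0.192), with values of -2.39, -0.97 and -1.11 and vehicle at -1.22 to 1.13. Ppia, Rpl37, Kif27 and Sp9 followed at -1.61, -2.18, -1.30 and -0.61 (adjusted p = 0.872). Rpl37 encodes a ribosomal protein with many processed copies and is uncertain. Against the herbicides chlorpropham and propyzamide, the 3 fungicides again called 0 genes (0% called, 415 at an unadjusted p under 0.05). Dnd1 had the smallest p, 2.46 higher with the fungicides (95% interval 1.44 to 3.47, adjusted p = 0.148), and was at 1.71 CPM.

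All 10 pairs of the 5 compounds at 10 μM were compared, with p adjusted over all genes and pairs together, 133040 tests. None of the pairs called a gene (0% called by limma in each), and 302 to 1460 genes per pair had an unadjusted p under 0.05. Benomyl and thiophanate had their smallest p at Tnk1, -1.46 for benomyl minus thiophanate (95% interval -2.04 to -0.89, adjusted p = 0.0787). Benomyl and thiabendazole, which differ in the carbamate or thiazole group on the ring, had theirs at Hist2h3c1, a histone gene, with 2.15 (95% interval 1.33 to 2.97, adjusted p = 0.0787). Chlorpropham and propyzamide had theirs at 9330179D12Rik, 2.80 (95% interval 1.72 to 3.88, adjusted p = 0.0787). With single samples the intervals were wide, with a median distance of 0.72 from the difference to either bound, so that 2-fold differences of many genes could not be told from no difference.

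For the tubulins, the 110 pair differences lay between -0.50 and 0.55, and none passed (smallest adjusted p = 0.733, 2 at an unadjusted p under 0.05). The distance to either bound of the 95% interval had a median of 0.38. Zoxamide and propyzamide share a dichlorinated benzamide and differ in the side chain on its nitrogen, but their doses differed. Side by side, Hmox1 was at 1.32 and 0.17, Srxn1 at 0.67 and 0.24 and Tubb3 at 0.11 and 0.09 with zoxamide and propyzamide.

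Whole profiles of the compounds were hardly alike. Across 5121 variably expressed genes, the Spearman correlations of the 15 pairs of compounds ran from -0.0595, for thiophanate with chlorpropham, to 0.124, for thiabendazole with zoxamide, with a median of 0.000142. Pairs of vehicle samples ran from -0.197 to 0.175. Benomyl had -0.0102 with thiophanate and 0.00161 with thiabendazole. Thiophanate was most like metsulfuron (0.189), cyhalofop-butyl (0.185) and fosthiazate (0.178), all members of the cluster 6 named above, a group drawn from these same values. Propyzamide, which is not in that group, had its highest correlations with cyhalofop-butyl (0.113), metsulfuron (0.109) and fosthiazate (0.104) too. Thiabendazole and zoxamide each had their highest correlation with a sample of fenamidone, a complex III fungicide (0.191 and 0.182). Genes are not replicates, and all these values share 1 normalization, so no p is given. The spread of deviations over the same genes was 0.456 to 0.632 (SD) for the 6 compounds and 0.381 to 0.716 for vehicle.

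The screen held 8 dinitroaniline herbicides at 10 μM, a second group of antitubulin pesticides, which bind plant tubulin. Binding to mouse tubulin was not examined for either group. Set against them, the 6 compounds differed in 2 genes (0.015% called). Kcnh3, a voltage-gated potassium channel of the forebrain (chr15:99055292-99073248, 57.5 ± 23.3 CPM), was at 0.08, 0.33, 0.61, 0.11, -0.08 and 0.27 with benomyl, thiabendazole, thiophanate, chlorpropham, propyzamide and zoxamide, and at -1.64 over -0.70 to 0.06 with the dinitroanilines. The difference was 0.88 (95% interval 0.54 to 1.23, adjusted p = 0.0209). The vehicle samples ran from -0.49 to 0.65 and held all 6 compounds, while the dinitroanilines themselves differed from vehicle by -0.79 (adjusted p = 3.29e-05, 2.09% of genes called). Rcsd1, which encodes a regulator of actin capping and was at 1.07 CPM, was at -1.56, 0.28, -2.76, -1.96, -0.30 and -0.36, against -0.46 over 1.00 to 1.71 with the dinitroanilines, a difference of -1.88 (95% interval -2.61 to -1.15, adjusted p = 0.0209). Against vehicle the 6 compounds differed at Rcsd1 by -1.11 and the gene was not called by limma (adjusted p = 0.526). Part of the -1.88 therefore lay on the side of the dinitroanilines. In the comparison with the dinitroanilines, leaving out benomyl, thiophanate or chlorpropham left 0 calls, leaving out thiabendazole or zoxamide left 1, and leaving out propyzamide left 2.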

How the data were processed

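Gene expression of the screen was read from a table in which the authors had deposited log10 values. The authors aligned the reads to mm9 with TopHat, counted them over RefSeq gene models joined by symbol, computed RPKM and took log10. They then applied quantile normalization, subtracted the median of every gene and took out batch effects with a mixed model. Levels, batches and depth can therefore no longer be read from it. The count values deposited by the authors for 4 vehicle columns, as raw reads per gene, gave the levels in CPM.

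Samples were grouped by their titles. Values were converted to log2 and tested two-sided with limma 3.58.1 in R 4.3.3 with no variance trend and Benjamini-Hochberg adjustment over all genes at 0.05; for the 10 pairs the adjustment ran over all pairs. Single compounds shared 1 fit with the 49 vehicle samples. The dinitroaniline comparison was fitted with the vehicle samples as a further group, and so were the benzimidazoles with the herbicides. A value was called outside the vehicle range when it was above or below all 49. Python 3.11.15, numpy 2.4.6 and pandas 2.3.3 made the summaries. Tests were run on simulated data first.

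Transcript lengths are those of the longest transcript in the GENCODE annotation of mm9, matched by symbol for 12388 genes and by another symbol for 653. The trend on length was a natural spline of 4 degrees of freedom per sample, an alternative chosen after seeing the data. Genes named are the measured alpha and beta tubulins, the largest rises and falls called (5 each for the class and 3 for a compound) or else the 5 smallest p, list members called (at most 4 per list) and list members outside the vehicle range with at least 3 compounds. Other genes were named after their values were seen. The compounds and gene lists were chosen with earlier results of these data known. A further gene list entered the counts over all lists and is not reported here.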

Additional observations from a re-analysis of the deposited data

Results flagged for a closer look

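Among 39 values examined over the 6 compounds (27 list medians, 11 tubulin genes and the number of genes called), 4 had 1 compound far from the other 5 by Dixon's ratio at the 95% level. Chance gives about 1 in 20. The NRF2 list median with zoxamide was 0.283, the median of the unfolded protein and heat shock list with thiabendazole was -0.151, and the median of the p53 target list with zoxamide was 0.087. The number of genes called against vehicle was 48 with thiophanate.

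The 6 compounds and the 8 dinitroaniline herbicides differed in a direct test at Kcnh3, by 0.883, and at Rcsd1, by -1.88. Against vehicle the 6 compounds were called at neither gene.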

How the results depend on the processing

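No paired analysis was possible because each compound had 1 sample and the numbers of the vehicle samples do not pair with it. The class against vehicle, the class against other chemicals and the pairs called 0 genes under every alternative run. Counted as genes outside the vehicle range, the numbers were 302 for benomyl, 437 for thiabendazole, 1259 for thiophanate, 629 for chlorpropham, 303 for propyzamide and 480 for zoxamide. At an adjusted p under 0.01, 0 genes were called for thiabendazole, 5 for thiophanate, 6 for chlorpropham, 2 for propyzamide, 0 for zoxamide and 0 against the dinitroanilines. With variable genes only, thiabendazole called 1, thiophanate 14 and zoxamide 2, with 5121 genes tested. Subtracting library medians left 0 calls for zoxamide, and removing the trend on transcript length left 9 for thiophanate; the cause was not tested. When each compound was left out in turn, the benzimidazoles called 0 to 1 genes against vehicle and 0 to 2 against the herbicides, and the class called 0 to 2 against the dinitroanilines. Leaving out thiabendazole gave the 1 call of the benzimidazoles against vehicle, and leaving out benomyl, thiabendazole, chlorpropham or propyzamide gave 1, 1, 2 and 1 against the herbicides. Class differences of 4 tubulins, none called, crossed 0 when compounds were left out: Tuba1a ran from -0.0298 to 0.0359, Tuba1b from -0.087 to 0.0234, Tubb2b from -0.0344 to 0.0163 and Tubb5 from -0.0543 to 0.000876. Without the length trend Tuba1a was at -0.0185. Over all alternatives, values of single named genes kept direction and side of the threshold in 434 cases, lost the call in 28, gained one in 4 and changed direction in 8. Depth limits the genes under a few CPM, since 1 CPM is few counts at the totals of the count table.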
